A study of Homo sapiens with 6 samples.

Results

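The AP-1, EGR1 and MYC transcription factor genes were followed through RNA-seq counts of CAL27 cells, a widely used line from a human squamous cell carcinoma of the mouth. The 10 genes (FOS, FOSB, FOSL1, FOSL2, JUN, JUNB, JUND, ATF3, EGR1 and MYC) were taken from the deposited count table by gene symbol, and all 10 were found among its 23384 gene identifiers. The series holds 6 libraries in 2 groups of 3. The 3 control libraries came from CAL27 cells of wild-type genotype that received a vector, and the 3 libraries labelled TNFAIP2 overexpression came from CAL27 cells given a TNFAIP2 plasmid. TNFAIP2 is a TNF-inducible gene. Delivery is called transfection in the sample labels and infection in the design text. The title places TNFAIP2 in NF-κB signalling and nodal metastasis of this cancer. All cells were grown in the same serum-containing medium, and the labels name no stimulus, harvest time or clone. Whether libraries of a group stem from independent cultures is not said, so the spread behind each p-value may be technical only.

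AP-1 is a dimer of basic leucine zipper proteins. JUN, JUNB and JUND pair with each other or with a FOS protein (FOS, FOSB, FOSL1 or FOSL2), whereas FOS proteins do not bind DNA stably without a JUN partner. ATF3 belongs to the ATF group of the same superfamily and is induced by stress, EGR1 is a zinc finger factor, and MYC binds E-boxes together with its partner MAX. FOS, FOSB, JUN, JUNB, ATF3, EGR1 and MYC are immediate early genes: growth factors, serum and cytokines raise their transcripts quickly and briefly through MAP kinases, serum response factor and NF-κB, and the messages are short-lived. FOSL1 is the FOS protein most often linked to invasion and squamous carcinoma.

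Promoter sequences show the elements through which such genes are switched. RefSeq promoters (build GRCh38.p14, 250 bases before to 50 after the start) were matched by symbol for 8 of the 10 genes, with 9 entries. FOSL1 and MYC were the genes without an entry, so no motif was searched for them. The 3 windows below end at the base before the start, with motif matches in capitals. EGR1 is shown for the CArG box, bound by serum response factor, JUND for the CRE, bound by ATF and CREB proteins, and JUNB for its TATA box and because its locus is followed below.
EGR1 (chr5:138465229-138465478, plus strand): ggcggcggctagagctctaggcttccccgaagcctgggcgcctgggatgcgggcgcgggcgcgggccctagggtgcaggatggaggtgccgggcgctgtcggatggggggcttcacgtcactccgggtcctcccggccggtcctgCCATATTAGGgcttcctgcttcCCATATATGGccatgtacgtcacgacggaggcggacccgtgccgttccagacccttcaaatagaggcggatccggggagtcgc
JUND (chr19:18281623-18281872, minus strand): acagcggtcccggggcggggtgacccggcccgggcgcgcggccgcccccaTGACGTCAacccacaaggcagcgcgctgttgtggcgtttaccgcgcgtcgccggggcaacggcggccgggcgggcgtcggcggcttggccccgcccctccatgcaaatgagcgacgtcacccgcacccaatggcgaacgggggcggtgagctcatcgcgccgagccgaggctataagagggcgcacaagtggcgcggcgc
JUNB (chr19:12791236-12791485, plus strand): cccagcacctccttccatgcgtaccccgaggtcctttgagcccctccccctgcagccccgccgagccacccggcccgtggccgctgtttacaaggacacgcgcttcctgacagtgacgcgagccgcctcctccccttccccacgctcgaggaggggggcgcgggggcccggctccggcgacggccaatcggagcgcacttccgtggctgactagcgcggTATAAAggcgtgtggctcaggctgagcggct
The EGR1 window held 2 CArG boxes, which began at positions -105 and -83 counted from the start. The CArG box occurred in 1.29% of the 35116 promoters of the table, on either strand. In JUND the CRE, TGACGTCA, began at -200, and 1.85% of all promoters held that motif. TATAAA began at -31 in JUNB, -33 in FOS, -30 in FOSB and -230 in an ATF3 entry, and was found in 11.5% of all promoters. FOSL2 was the gene with an AP-1 site, TGACTCA, whose share in all promoters was 4.95%, and here it lay just after the start. The 9 entries had 0 matches to the E-box CACGTG, to the EGR1 site GCGTGGGCG and to the κB site, which occurred in 7.26%, 0.795% and 11.3% of all promoters. These matches describe letters in the windows and do not show binding. None of the searched motifs overlapped another in the 3 windows.

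The libraries held from 3092261 to 3527161 counts, of which the 10 genes together held 0.0341% to 0.0545%. Of the deposited features with a total of at least 60 counts, 369 lie within the exons of a protein-coding gene on the other strand. In 321 of these pairs the gene had fewer counts than the feature. The minimum was set on the feature and not on the gene, which favours pairs with more counts on the feature. Without a count minimum, 5733 of the 23384 identifiers shared at least 50 exonic bases with a coding gene on the other strand. They held 68.3% of all counts. Over the 369 pairs, the median of the gene's count divided by that of the feature, here called the own-strand ratio, was 0.102, 0.0991 and 0.180 in controls (replicates 1 to 3, as in all lists of values below) and 0.198, 0.134 and 0.192 in the overexpression-labelled libraries. The groups overlapped (p = 0.2 in a two-sided exact permutation test, which cannot go below 0.1 with 3 against 3). The values of all 10 genes describe reads assigned to the annotated strand, which may be a small share of each gene's reads. TNFAIP2 had 70.1, 36.1 and 47.8 CPM (counts scaled to a common library size, with TMM factors) in controls. In the other group it had 50.7, 44.3 and 37.8 CPM. Its log2 fold change (overexpression-labelled minus control) was -0.21 (SE 0.28, 95% interval -0.79 to 0.36, edgeR adjusted p = 0.881). Counts under its own name thus do not show the overexpression, and directions below are between groups as labelled. Of the general epithelial markers, KRT8, KRT18, EPCAM and CDH1 summed to 5915 to 8127 CPM in controls and 5283 to 6160 CPM in the other group. For KRT19, also a listed marker, no counts were found under its symbol, so it did not enter the sums. Squamous and basal epithelial markers were present, with all 8 in the table and summed levels of 938 to 1221 CPM in controls and 1031 to 1239 CPM in the other group. For other cell types the sums were low: 1.08 to 5.59 CPM over the fibroblast markers, 4.70 to 11.9 CPM over the endothelial and 3.79 to 6.77 CPM over the leukocyte markers. The melanocyte and neural markers summed to 135 to 207 CPM, nearly all from PMEL with a mean of 168 CPM, which shares 89 exonic bases with CDK2 on the other strand. SYT1, MLANA and SNAP25 had means of 1.24, 0.33 and 0.1 CPM.

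By counts under its own name FOSL1 was the most abundant of the 10 genes, and the groups did not differ beyond their spread in any of them. Of the 10 genes, 9 had enough counts to be tested and 0 passed an adjusted p of 0.05 in edgeR's quasi-likelihood test over 11851 genes, where 0% of all genes passed. An unadjusted p under 0.05 was found for 0 of the 9 and for 4.89% of all tested genes, 1.83% higher and 3.06% lower (DESeq2 and limma-voom called 3 and 1 genes in all, and 0 of the 10). In 0 of the 10 did the libraries of the 2 groups separate, against 5.54% of tested genes that lay wholly higher and 4.92% wholly lower in the overexpression-labelled libraries. The log2 fold change (overexpression-labelled minus control) was positive for 6 of 9, with a median of 0.13. Of all tested genes 51.9% were positive, with a median of 0.02. Among all tested protein-coding genes it was positive for 62%, also with a median of 0.13.

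Per kilobase of exon, and counting only reads under the gene's own name, FOSL1 stood first and its range over the 6 libraries (109 to 163 CPM per kb) did not overlap that of the next gene. MYC, JUND, JUNB and JUN followed with means of 21.6, 20.7, 20.1 and 15.8 CPM per kb. Their ranges overlapped each other, so the order among these 4 was within the spread. FOSL2 came next at 3.49 CPM per kb, below the lowest value of JUN. Its range reached down to 2.07 CPM per kb and overlapped that of EGR1, which had a mean of 1.38. FOS, ATF3 and FOSB had means of 0.945, 0.786 and 0.221 CPM per kb, with overlapping ranges. The classical immediate early members FOS, FOSB, EGR1 and ATF3 were at the bottom of this order, at 0 to 26 counts per library. This lead of FOSL1 is one of own-name counts, and whether it depends on the strand assignment was not tested. With the counts of the features on the other strand described below added to them and divided by the exon length of the member, a value chosen after seeing the data, MYC with CASC11 ranged from 130 to 311 and JUNB with HOOK2 from 115 to 257 CPM per kb. Both overlapped FOSL1. Such sums also hold reads from exons of CASC11 and HOOK2 outside the members.

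**Figure D1:**
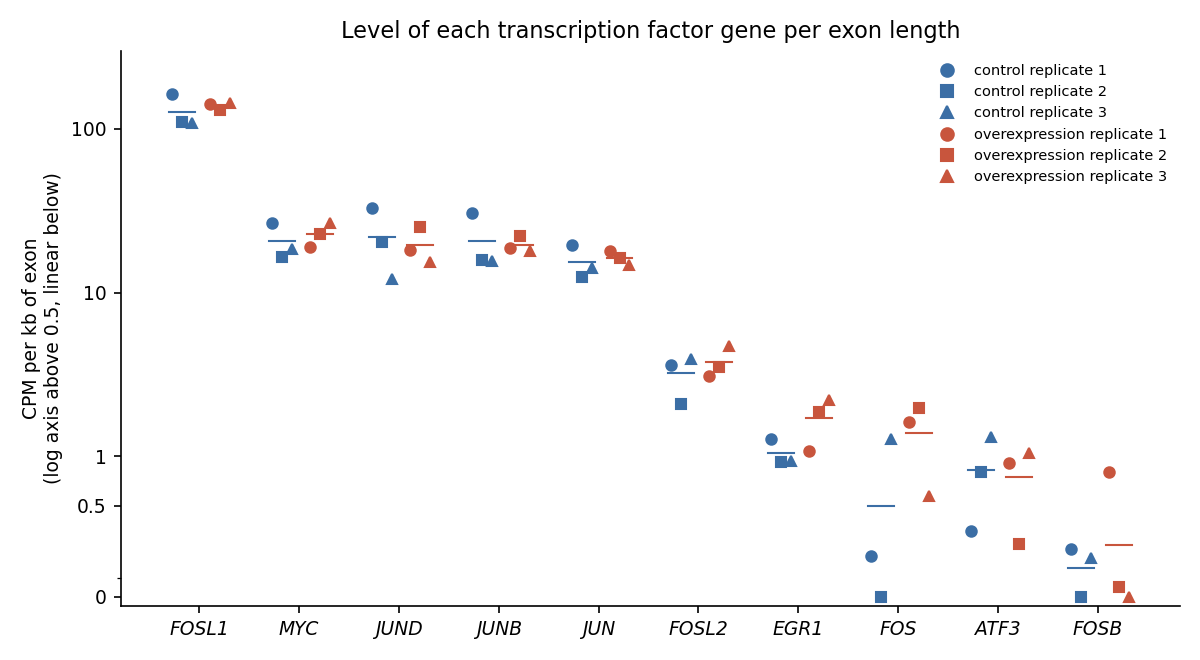
Level of the 10 genes in each library, as CPM under the gene's own name divided by exon length in kb, ordered by mean. The vertical axis is logarithmic above 0.5 and linear below. Points are libraries and short lines are group means of 3. FOSL1 lies between 109 and 163, apart from all others, while MYC, JUND, JUNB and JUN overlap.

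FOSL1, the Fra-1 gene (ENSG00000175592, chromosome 11, 65892049 to 65900573, minus strand, GRCh38, 1887 exonic bases), had 307, 206 and 206 CPM in controls. The overexpression-labelled libraries had 267, 247 and 270.4 CPM. All 3 values of the second group lay inside the control range, between the high control replicate 1 and the other two controls. The means were 240 ± 58.5 and 262 ± 12.6 CPM (SD, n = 3). The log2 fold change was 0.13 (SE 0.20, 95% interval -0.30 to 0.55, edgeR adjusted p = 0.897). On the linear scale this interval runs from 0.815-fold to 1.46-fold.

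The other members of the FOS family were far lower. FOSL2, the Fra-2 gene (ENSG00000075426, chromosome 2, 28392448 to 28417317, plus strand), had control levels of 26.03, 14.8 and 28.0 CPM and levels of 22.2, 25.1 and 33.5 CPM in the other group. The lowest value was a control and the highest an overexpression-labelled library, with the other four mixed between them (log2 fold change 0.23, SE 0.33, 95% interval -0.45 to 0.91, edgeR adjusted p = 0.889). FOS (ENSG00000170345, chromosome 14, 75278826 to 75282230, plus strand), the founding member and an early response gene, had 2, 0 and 14 counts in controls and 20, 22 and 7 counts in the other group. The 0 allows up to 0.851 CPM of that library's total, by counting error alone. Control replicate 3, with 14 counts, lay above overexpression-labelled replicate 3, so the groups overlapped. Its log2 fold change of 1.41 had the widest interval of the tested members (SE 0.93, 95% interval -0.53 to 3.35, edgeR adjusted p = 0.830). That value rested on single libraries: without control replicate 3 it was 3.56 (adjusted p = 0.0555) and without control replicate 2 it was 0.86. FOSB (ENSG00000125740, chromosome 19, 45467995 to 45475179, plus strand) had 4, 0 and 4 counts in controls and 17, 1 and 0 counts in the other group and was too low to be tested. A single library, overexpression-labelled replicate 1, held 17 of those counts.

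Within each library, FOSL1 made up 95.3% to 98.1% of the summed FOS family level per exon length, and FOSL2 1.86% to 3.42%. These shares do not depend on how libraries were scaled. FOSL1 averaged 97.0 ± 1.51% in controls and 96.2 ± 0.258% in overexpression-labelled libraries (SD, n = 3), and the ranges overlapped. FOS reached at most 1.45% and FOSB at most 0.544%. By the same own-name counts the JUN family was more evenly divided. JUN held 23.5% to 33.8%, JUNB 32.5% to 37.3% and JUND 29.1% to 42.04% of its summed level per exon length, and group means differed by less than the SD of the controls for each of the 3. With all counts of HOOK2, the gene on the other strand described below, added to JUNB alone, JUNB held 76.0% to 83.1%. HOOK2 shares 259 of its 5950 exonic bases with JUNB, so this sum cannot show how strand assignment affects the split.

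JUN (ENSG00000177606, chromosome 1, 58776845 to 58784048, minus strand), whose protein is the main partner of FOS proteins, had 69.0, 43.9 and 50.1 CPM in controls. The overexpression-labelled libraries had 63.5, 57.4 and 52.4 CPM, all within the control range (log2 fold change 0.09, SE 0.25, 95% interval -0.43 to 0.61, edgeR adjusted p = 0.940). Without control replicate 2 it was -0.017. JUNB (ENSG00000171223, chromosome 19, 12791486 to 12793315, plus strand), a single-exon gene often opposed to JUN in growth control, had 56.0, 28.7 and 28.3 CPM in controls and 33.98, 40.2 and 32.7 CPM in the other group. JUND (ENSG00000130522, chromosome 19, 18279694 to 18281622, minus strand), also of a single exon and usually the constitutive member of the family, had 61.1, 38.1 and 22.7 CPM and 33.98, 46.9 and 28.7 CPM. For both genes control replicate 1 was the highest of the 6 libraries and control replicate 3 the lowest. The log2 fold changes were -0.08 for JUNB (SE 0.30, 95% interval -0.70 to 0.55) and -0.15 for JUND (SE 0.33, 95% interval -0.84 to 0.54), with edgeR adjusted p = 0.959 and 0.924. Both signs turned without control replicate 1, to 0.32 and 0.26. Adjusted for the own-strand ratio they were 0.23 and 0.51, with no call.

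**Figure D2:**
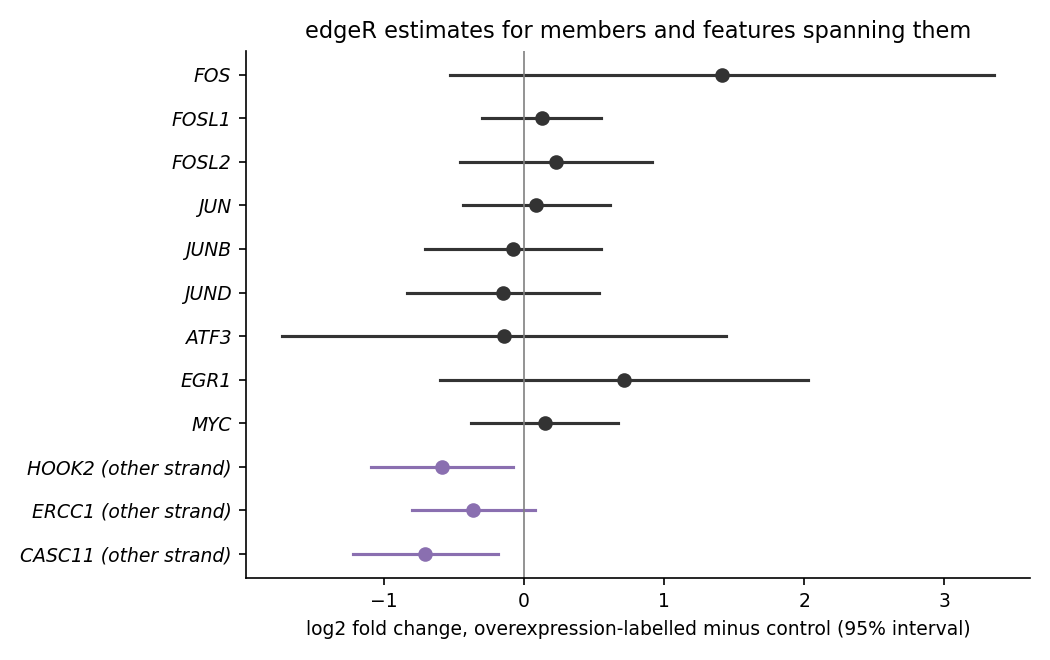
edgeR log2 fold changes (overexpression-labelled minus control) of the 9 tested members and of 3 features annotated on the other strand over JUNB (HOOK2), FOSB (ERCC1) and MYC (CASC11). Points are estimates from 3 libraries per group and bars are 95% intervals, unadjusted for the number of genes. All 9 member intervals include 0, and that of FOS spans -0.53 to 3.35.

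EGR1 and ATF3 were close to the limit of detection. EGR1 (ENSG00000120738, chromosome 5, 138465479 to 138469303, plus strand) had 11, 9 and 10 counts in controls and 13, 20 and 26 counts in the overexpression-labelled libraries. In scaled units overexpression-labelled replicate 1, at 3.40 CPM, lay below control replicate 1, at 3.98 CPM, and the groups overlapped by that pair alone. The means were 3.28 ± 0.607 and 5.38 ± 1.80 CPM (SD, n = 3). The log2 fold change was 0.71 (SE 0.63, 95% interval -0.60 to 2.03, edgeR adjusted p = 0.843). ATF3 (ENSG00000162772, chromosome 1, 212565334 to 212620777, plus strand) had 4, 10 and 18 counts in controls and 14, 4 and 16 counts in the other group. Low and high libraries occurred in both groups (log2 fold change -0.14, SE 0.76, 95% interval -1.73 to 1.44, edgeR adjusted p = 0.969), and the sign turned without control replicate 3 (0.36) or overexpression-labelled replicate 2 (0.27). The intervals of FOS, EGR1 and ATF3 include changes of 2-fold or more.

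MYC (ENSG00000136997, chromosome 8, 127735434 to 127742951, plus strand), which drives growth and ribosome production in many carcinomas, had 79.9, 49.7 and 55.1 CPM in controls. In the other group it had 56.7, 68.2 and 79.6 CPM. The highest value of each group was nearly the same, and the 2 lowest of the 6 were controls. The means were 61.6 ± 16.1 and 68.2 ± 11.4 CPM (SD, n = 3). The log2 difference was 0.15 (SE 0.25, 95% interval -0.37 to 0.67, edgeR adjusted p = 0.9004).

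Features annotated on the other strand were found over 4 of the genes. HOOK2, a cargo adaptor gene (chromosome 19, 12763003 to 12872740, minus strand), spans JUNB and shares 259 exonic bases with it in GENCODE release 29. CASC11, a lncRNA gene (chromosome 8, 127686343 to 127738987, minus strand), covers 1930 of the 3001 exonic bases of MYC with its deposited span. In release 29 CASC11 ends at 127733967, before MYC begins, so how many exonic bases the authors' annotation shares is not given in the sources used here. ERCC1, a DNA repair gene, spans all of FOSB (45407334 to 45478828, minus strand) with 0 shared exonic bases, and its exons overlap those of CD3EAP. The lncRNA FLJ31356 begins inside FOSL2, also with 0 shared exonic bases, and had 0 to 9 counts per library. Near the starts of JUN and JUND lay LINC01135 with 1 to 8 counts and MIR3188 with 0 or 1 count.

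The features over MYC and JUNB held several times the counts of the genes themselves. CASC11 had control levels of 855, 488 and 381 CPM, and 335, 378 and 346 CPM in the other group. All 3 overexpression-labelled values lay below all controls, by a narrow margin for control replicate 3 (percent of all tested genes wholly lower, 4.92%). The log2 fold change was -0.70 (SE 0.24, 95% interval -1.22 to -0.19, unadjusted p = 0.0104, edgeR adjusted p = 0.830). Leaving out control replicate 1 gave -0.30, and adjusting for the own-strand ratio gave -0.29, while it passed the test without control replicate 3 (-0.93, adjusted p = 0.000398). HOOK2 had 411, 244 and 187 CPM in controls and 175, 198 and 189 CPM in the other group, with overlap. Its log2 fold change was -0.58 (SE 0.24, unadjusted p = 0.0270, edgeR adjusted p = 0.830), with -0.20 without control replicate 1, -0.18 adjusted for the own-strand ratio and -0.81 (adjusted p = 0.00377) without control replicate 3. ERCC1 had 1256, 893 and 704 CPM and 682, 856 and 686 CPM (log2 fold change -0.36, SE 0.21, edgeR adjusted p = 0.830), with -0.11 without control replicate 1, -0.01 adjusted for the own-strand ratio and -0.54 (adjusted p = 0.0306) without control replicate 3. Control replicate 1 was the highest library at all 3 features. In the fit without control replicate 3, 922 genes passed (7.41% of 12443 tested, 4.13% higher), and 0 of the 9 members did. The remaining controls had own-strand ratios of 0.102 and 0.0991, below all libraries of the other group (0.134 to 0.198). In that fit, group and own-strand ratio cannot be told apart.

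Read beside its feature, each of MYC and JUNB took a larger share of the counts in the overexpression-labelled libraries. The MYC count divided by that of CASC11 was 0.0935, 0.102 and 0.145 in controls and 0.169, 0.180 and 0.230 in the other group. The JUNB count divided by that of HOOK2 was 0.136, 0.118 and 0.152 in controls and 0.194, 0.203 and 0.173 in the other group. Both ratios were wholly higher in the overexpression-labelled libraries. So were 9.26% of 3616 pairs of a coding gene and an other-strand feature sharing at least 50 exonic bases. A further 4.65% of these pairs were wholly lower. JUNB and HOOK2 share 259 exonic bases, but MYC and CASC11 share 0 in the exon models used here. The MYC pair is thus not of that kind, and these shares are no direct background for its ratio. Exact two-sided permutation tests gave p = 0.1 for each of the 2 ratios, the smallest this design allows. After Benjamini-Hochberg adjustment over 3 ratios it was 0.15. The third, FOSB over ERCC1, had p = 0.9 in the same exact test. The own-strand ratio of the libraries moved the same way, from a mean of 0.127 ± 0.0459 to 0.175 ± 0.0353 (SD, n = 3), and its part in these 2 ratios was not tested. Added together, MYC and CASC11 had 935, 538 and 436 CPM in controls and 392, 446 and 426 CPM in the other group. In a fit with such sums, chosen after seeing the data, the log2 fold change was -0.59 for MYC with CASC11 and -0.51 for JUNB with HOOK2 (SE 0.24 for the first, edgeR adjusted p = 0.829). CASC11 holds most of the summed counts, so the sum follows CASC11 and is no separate measure of MYC.

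**Figure D3:**
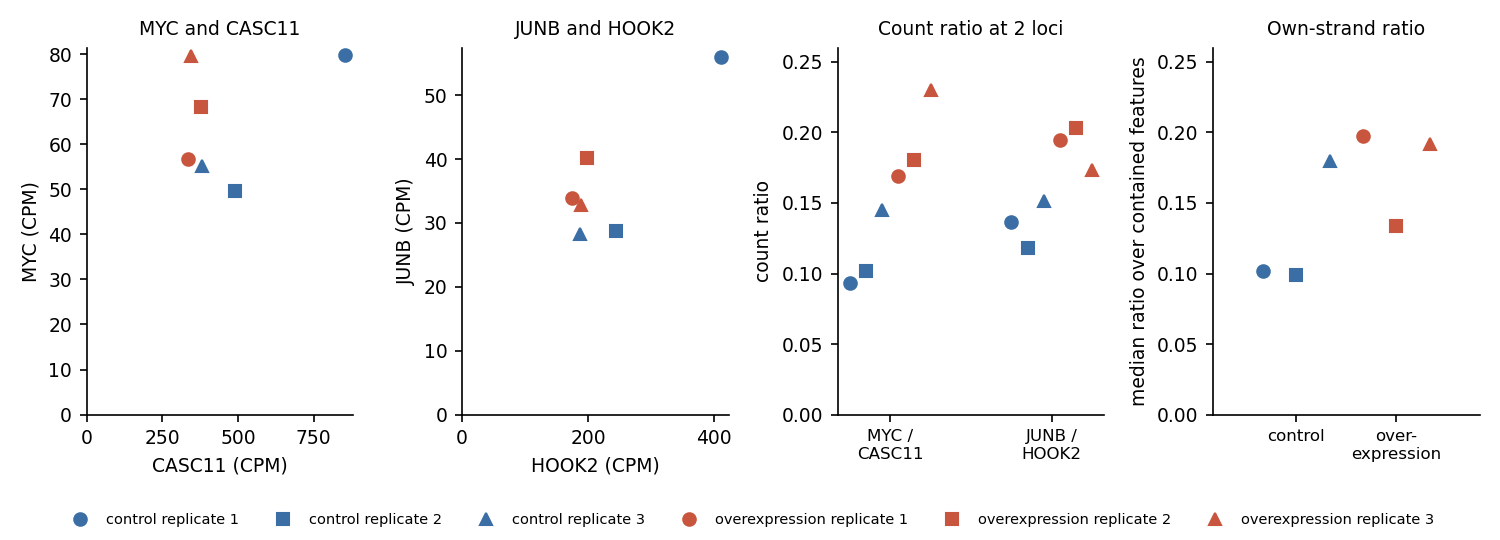
The left panels plot MYC against CASC11 and JUNB against HOOK2 in CPM, 1 point per library. The right panels give the count ratio at both loci and the own-strand ratio of each library, the median over 369 contained features. Control replicate 1 stands apart at 855 CPM of CASC11 and 411 CPM of HOOK2, and both count ratios are higher in all 3 overexpression-labelled libraries.

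Other genes of these pathways were read from lists, chosen for their known roles. None of the 120 tested list genes passed the adjusted threshold. The groups separated in 12 of them, 10 higher and 2 lower, against 5.54% and 4.92% of all tested genes, coding or not. These shares were not computed for coding genes alone, of which more had positive values. The medians below stand beside a median of 0.13 and 62% positive values among all tested coding genes. Of 12 other AP-1 and CREB/ATF basic leucine zipper genes, 6 had a positive log2 fold change (median 0.01). Levels here are means ± SD of 3 controls, then of 3 overexpression-labelled libraries. ATF5, opposite NUP62, had 177 ± 26.9 and 175 ± 22.3 CPM. MAFK, a small MAF gene opposite TMEM184A, had 98.0 ± 2.23 and 109 ± 7.75 CPM, wholly higher in the second group. ATF6, named after its values were seen, was wholly lower, at 6.65 ± 0.752 and 4.23 ± 1.34 CPM. ATF4, the effector of the integrated stress response, had 54.1 ± 8.21 and 55.5 ± 6.71 CPM, and MAFF 44.6 ± 2.88 and 43.1 ± 1.91 CPM. Among 13 other immediate early genes 8 were positive (median 0.11), and in 0 of them did the groups separate. CCN1, a matricellular YAP and SRF target, had 73.0 ± 11.3 and 93.4 ± 8.44 CPM (log2 fold change 0.36, SE 0.22, edgeR adjusted p = 0.830). IER3 had 86.7 ± 26.6 and 100.2 ± 27.8 CPM, the short-lived survival gene MCL1 65.4 ± 31.7 and 73.4 ± 22.7 CPM, and PPP1R15A 52.4 ± 8.23 and 60.7 ± 2.65 CPM.

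Upstream of these factors, 15 of 20 tested MAP kinase pathway genes had a positive value (median 0.29). EGFR, the receptor at the head of the pathway, had 154 ± 74.3 and 219 ± 71.6 CPM (log2 fold change 0.50, SE 0.32, edgeR adjusted p = 0.830). MAP2K2 had 80.0 ± 28.2 and 84.6 ± 16.4 CPM, HRAS 63.5 ± 3.85 and 66.5 ± 3.88 CPM, and MAP2K1, which lies opposite SNAPC5, 44.9 ± 19.1 and 48.9 ± 4.24 CPM. Of the serum response factor, TCF and EGR1 co-regulator genes, 10 of 11 were positive, with a median of 0.44. SRF itself had 44.5 ± 9.04 and 48.7 ± 2.26 CPM, ETS2 30.9 ± 6.54 and 38.5 ± 4.60 CPM, ELK3 19.6 ± 6.52 and 26.7 ± 5.44 CPM, and ELK1 16.6 ± 9.64 and 28.7 ± 8.15 CPM (log2 fold change 0.78, SE 0.38, edgeR adjusted p = 0.830). Feedback inhibitors of MAP kinase signalling had 4 of 6 positive (median 0.15). DUSP4, a phosphatase of ERK and JNK, had 31.6 ± 1.97 and 39.3 ± 5.15 CPM, and the groups separated.

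Genes known as AP-1 targets had 15 of 19 positive values (median 0.26). Of these 19, 2 had an unadjusted p under 0.05 and both were higher, against 1.83% of all tested genes that were. One of them was S100A2, a squamous calcium-binding protein gene at 194 ± 16.6 and 270 ± 13.8 CPM (log2 fold change 0.48, SE 0.19, edgeR adjusted p = 0.830), with separate groups. HMGA1 had 768 ± 150 and 833 ± 65.3 CPM and CD44 232 ± 72.1 and 278 ± 35.8 CPM. In the MYC network, 8 of 13 partners and regulators were positive (median 0.23). MAX, the obligate partner of MYC, had 155 ± 25.1 and 139 ± 9.95 CPM. MLX, opposite PSMC3IP, had 200.1 ± 31.1 and 193 ± 28.5 CPM. MXD3, at 1474 ± 224 and 1285 ± 128 CPM, lies opposite PRELID1. Genes known as MYC targets had 20 of 26 positive values (median 0.35), with the nucleolar genes NCL at 786 ± 18.5 and 917 ± 22.3 CPM and NPM1 at 354 ± 90.1 and 437 ± 55.8 CPM. The glycolytic genes ENO1 and LDHA had 716 ± 182 and 905 ± 117 CPM and 336 ± 282 and 430 ± 130 CPM. For NCL the groups separated, and its log2 fold change was 0.22 (SE 0.18, edgeR adjusted p = 0.837).

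**Figure D4:**
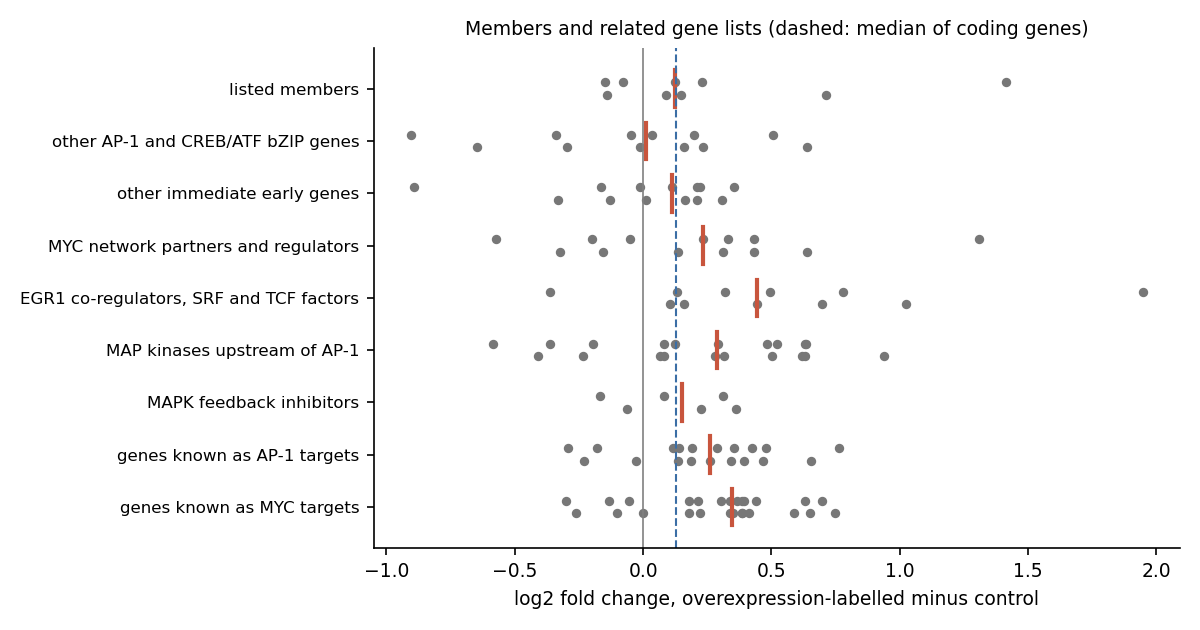
log2 fold changes (overexpression-labelled minus control) of the 9 tested members and of the tested genes of 8 related lists. Grey points are genes, red bars are list medians and the dashed line is the median of all tested coding genes, 0.13. The member median is 0.13 and the list medians run from 0.01 to 0.44.

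Patterns over the 6 libraries were compared by the root mean square difference of centred log2 CPM, for the 3 members with the highest mean CPM and 7818 other named genes. FOSL1 was nearest to RPS6KA4, at 0.0293, then to ACTB at 0.0365 and SRF at 0.0390, where its own spread over the libraries was 0.210. MYC was nearest to WWC1 at 0.0574, RRP7A at 0.0615 and SCNN1A at 0.0776, with an own spread of 0.262. JUN was nearest to LPCAT1 at 0.0651, SNRNP35 at 0.0751 and ITGB4 at 0.0899, with an own spread of 0.215. SCNN1A lies opposite LTBR and SNRNP35 opposite RILPL1. RPS6KA4 is a kinase of the MAP kinase pathway, ACTB is a serum response factor target, RRP7A acts in ribosome assembly and ITGB4 is an integrin of basal epithelium. These neighbours describe 6 libraries and no test was made.

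**Figure D5:**
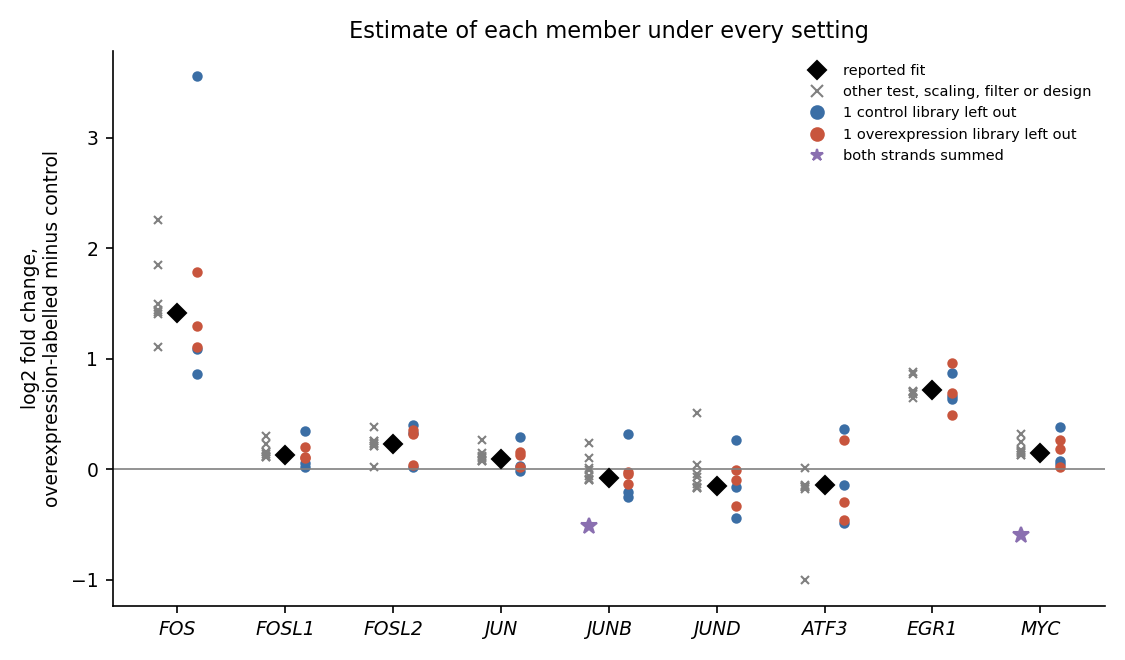
log2 fold change of each tested member in the reported edgeR fit (diamond), with another test, scaling, filter or design (cross), with 1 library left out (circle) and, for JUNB and MYC, with the feature on the other strand added (star). FOSL1, FOSL2, FOS and EGR1 stay above 0 in each of these, while JUN, JUNB, JUND and ATF3 cross it. MYC falls below 0 only with CASC11 added.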

How the data were processed

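RNA-seq was done on 3 control and 3 overexpression-labelled CAL27 libraries made with a stranded mRNA kit, per the labels. HISAT2 2.2.0 and HTSeq 0.13.5, Trim Galore 0.6.4 and the build GRCh38 (hg38) appear in the submitters' processing notes. The authors deposited whole-number read counts per gene, not normalized. Their strand setting and annotation release: not given in the sources used here. Columns were matched to libraries by the names in the labels, and groups were taken from titles. Exons came from GENCODE release 29 (22828 of 23384 identifiers matched).

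The groups were compared with edgeR 4.0.16 in R 4.3.3 (filterByExpr, TMM, robust quasi-likelihood F test, SE from the F statistic, Benjamini-Hochberg adjustment over all genes, threshold 0.05). DESeq2 1.42.0, limma-voom 3.58.1, other scalings and filters, a replicate block, the own-strand ratio (log2) as a covariate and leaving out each library were alternatives. On counts simulated for 11851 genes, edgeR called 0 of 49 genes changed 1.5-fold, 9 of 49 changed 2-fold, 30 of 50 changed 3-fold and 31 of 47 changed 4-fold, with 11 false calls. The changed genes were drawn from those with a mean of at least 5 CPM. FOS, ATF3 and EGR1, with means of 3.06, 3.18 and 4.33 CPM, lay below that, so these rates do not cover them. Ratios were tested with SciPy 1.17.1. The own-strand ratio used features with at least 90% of their exonic bases inside the gene, at least 50 shared bases and at least 60 counts, with 0.5 added to both counts. Limits from a count of 0 use 3 counts and cover counting error only.

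The members and lists were chosen with earlier results of these data known. Named were all 10 members, TNFAIP2, features opposite a member or within 5 kb of its start on the other strand, up to 4 genes per list by mean CPM and the 3 nearest genes of at least 5 CPM for the 3 highest members. Of the genes this rule names, 2 are not reported here.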

Additional observations from a re-analysis of the deposited data

How the results depend on the processing

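The count of genes past the threshold was 0 in the reported fit, 3 with DESeq2, 1 with limma-voom and 3 with no low-count filter. Leaving out 1 library gave 0 to 922, the highest without control replicate 3, and 1 gene when control replicate 1 or overexpression replicate 2 was dropped. No member passed in any of 125 member results under the alternatives, and 12 of these changed sign, including the sum of MYC with CASC11, which mostly measures CASC11. JUNB was 0.0075 with limma-voom, 0.10 with library totals and 0.23 with the own-strand covariate. JUND was 0.038 with library totals and 0.51 with that covariate. ATF3 was 0.0058 with library totals, a scaling that moved the median of all tested genes from 0.02 to 0.18, so that all 3 values stayed below that median. With the covariate ATF3 was -1.01. MYC was -0.59 with CASC11 added. Without 1 library, log2 fold changes ran from -0.017 to 0.29 for JUN, -0.25 to 0.32 for JUNB, -0.45 to 0.26 for JUND, -0.49 to 0.36 for ATF3 and 0.86 to 3.56 for FOS. For TNFAIP2 they ran from -0.39 to 0.074, the highest without control replicate 1. Except where 1 library was left out or counts were added, the cause was not tested. The difference in own-strand ratio ran from 0.0336 to 0.0740.

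The replicate numbers are shared by the groups, but no label says that they pair samples. Deviations of same-numbered libraries from their group mean correlated at -0.25, 0.15 and -0.05. With 3 libraries per group such values cannot show whether the numbers pair samples. With a replicate block 0 genes passed, and member values kept their sign, with FOS at 1.85 and FOSL1 at 0.15. FOS, FOSB, EGR1 and ATF3 had 0 to 26 counts per library, and the part of depth in their wide intervals was not tested.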

Other observations

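Beyond the 3′ end of FOSL1, 414 bases away and on the other strand, lies CCDC85B, which was singled out after its values were seen. It had 1479, 1006 and 731 CPM in controls. The other group had 840.1, 889 and 824 CPM, and edgeR gave a log2 fold change of -0.33 (adjusted p = 0.830). Control replicate 1 was again the highest library, and the groups overlapped.

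Among the genes known as MYC targets, PHB had an unadjusted p of 0.0428 and was singled out for that, with a log2 fold change of 0.59 and an edgeR adjusted p of 0.830.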
